A study of Homo sapiens with 8 samples.

Results

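Toll-like receptor (TLR) genes and the genes of their endolysosomal partners were followed in 8 poly(A)-selected RNA-seq libraries from HCT116, a human colorectal cancer cell line. The set was chosen by gene name and held 10 genes of the 60649 gene identifiers in the abundance tables: the receptors TLR1, TLR2, TLR3, TLR4, TLR5, TLR6 and TLR9, the receptor chaperone UNC93B1, and the transporters SLC15A3 and SLC15A4. The 10 names were listed with values from these libraries already known, so their levels and tests describe these libraries and are no independent evidence. Each name matched 1 gene, and each gene had a value in all 8 libraries.

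The libraries formed 4 groups of 2. HCT116 shScr was the parental line with a control hairpin, and HCT116 shUHRF1 was the parental line with a hairpin against UHRF1. UF1hypo is a clone of HCT116 in which 1 UHRF1 allele was inactivated by removal of an exon, so its cells carry a heterozygous UHRF1 deletion. UF1hypo shScr carried the control hairpin and UF1hypo shUHRF1 the hairpin against UHRF1, and the UF1hypo controls thus shared the deletion with the knockdown cells. All 4 were hairpin-transduced pools selected with puromycin. Several harvest days are described for such pools and the labels do not say which applies to each library, so a difference in harvest day between groups cannot be told apart from the groups. UF1hypo is 1 clone, so a difference between the lines cannot be told apart from a difference between clones. The labels do not say whether the 2 libraries of a group came from separate cultures, so the p-values measure the spread between these libraries, which may be technical.

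UHRF1 is the protein that brings the maintenance DNA methyltransferase to newly replicated DNA. TLRs are membrane receptors that recognize microbial or misplaced molecules and signal through a cytoplasmic TIR domain. TLR1, TLR2 and TLR6 work as dimers at the cell surface and bind lipopeptides, TLR4 binds lipopolysaccharide with its co-receptor LY96, and TLR5 binds bacterial flagellin. TLR3 and TLR9 work in endosomes, where TLR3 binds double-stranded RNA and TLR9 binds unmethylated CpG DNA. UNC93B1 escorts the nucleic acid-sensing receptors from the endoplasmic reticulum to endolysosomes. SLC15A3 and SLC15A4 are proton-coupled transporters of histidine and oligopeptides in the endolysosomal membrane, and SLC15A4 also holds the adaptor TASL that recruits IRF5.

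Promoter sequence was available from RefSeq (GRCh38.p14) for 7 of the 10 genes, as 250 bases before and 50 bases after each annotated start. The promoters of TLR3 and TLR2 are shown to the first 20 bases of the transcript, since they differ widely in base composition and since TLR3 was called higher in 1 comparison below whereas TLR2 was listed at 0 in 7 of 8 libraries. The stretches are chr4:186068906-186069175 for TLR3 and chr4:153684030-153684299 for TLR2, both on the plus strand. Capitals mark matches to GAAA, any 2 bases and GAAA, the core of an interferon regulatory factor element, or TTCNNNGAA, the core of a STAT element, searched on both strands.
TLR3: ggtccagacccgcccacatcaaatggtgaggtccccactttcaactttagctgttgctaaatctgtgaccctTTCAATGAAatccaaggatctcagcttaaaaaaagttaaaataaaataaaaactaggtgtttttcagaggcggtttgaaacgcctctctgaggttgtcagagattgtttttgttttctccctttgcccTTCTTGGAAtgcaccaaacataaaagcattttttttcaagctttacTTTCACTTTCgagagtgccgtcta
TLR2: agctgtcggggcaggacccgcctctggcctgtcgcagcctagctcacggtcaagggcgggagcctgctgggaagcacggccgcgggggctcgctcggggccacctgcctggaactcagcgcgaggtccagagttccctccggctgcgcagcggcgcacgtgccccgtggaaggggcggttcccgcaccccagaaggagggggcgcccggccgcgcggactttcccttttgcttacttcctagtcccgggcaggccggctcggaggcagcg
TLR3 held 1 match to the first core, read on the minus strand at position -4 from the start, and 2 TTCNNNGAA matches, at positions -178 and -50, which do not overlap the other match. TTCNNNGAA is its own reverse complement, so each of its matches is found on both strands. Of 35116 promoters of the same length, 3.57% held the first core and 7.66% held TTCNNNGAA. Neither core was found in the windows of TLR2, TLR4, TLR5, TLR6, TLR9 or SLC15A4. The TLR3 window had 5 CpG dinucleotides and a GC content of 40.3%, against 33 CpG dinucleotides and 72.7% for TLR2. The median over all promoters was 14 CpG dinucleotides and 58.7%. SLC15A4 had 31 and TLR5 had 27 CpG dinucleotides, and TLR4, TLR6 and TLR9 had 8, 5 and 2. These matches describe letters in a window and no binding was measured.

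The libraries held 5.42 to 7.83 Gb of aligned sequence, worked out from coverage and FPKM, since the tables hold no counts. UHRF1 itself was at 87.5 and 98.4 TPM (a transcript's length-scaled share of the library) in HCT116 shScr and at 31.7 and 32.7 after knockdown, and in the clone at 47.3 and 50.6 TPM in UF1hypo shScr and at 34.1 and 21.1 after knockdown. Its fitted log2 fold change with the hairpin was -1.50 ± 0.222 (SE) in HCT116 and -0.84 ± 0.221 in UF1hypo (limma, adjusted p = 0.0564 and 0.0406), so neither met both thresholds of a call. These are RNA levels of the whole gene, which do not separate the deleted allele and do not give the level of UHRF1 protein. The epithelial markers KRT8, KRT18, KRT19, EPCAM and CDH1 made most of a summed level of 4354 to 12710 TPM over the 7 listed, whereas VIL1, a microvillus protein of enterocytes, did not exceed 0.142 TPM in any library. The 2 UF1hypo shUHRF1 libraries stood apart from each other, with a Pearson r of 0.979 over 19960 protein-coding genes, against 0.995 to 0.996 for the other pairs. Their difference followed GC content across genes (Spearman rho = -0.873, 10684 genes, a description across genes), as did that of the UF1hypo shScr pair in the opposite direction (0.615). For the 10 genes, the tested values that rest on UF1hypo shUHRF1 are therefore also given without each of its libraries.

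A gene was called when its limma adjusted p (Benjamini-Hochberg, over all protein-coding genes tested) was below 0.05 and its log2 fold change exceeded 1 in size, on the log2(TPM + 1) scale, which understates the change of low genes. A gene was tested only when it passed 1 TPM in at least 1 library of the comparison. TLR2, TLR4 and TLR9 did not reach 1 TPM in any library and were tested in none. UNC93B1, SLC15A4, TLR1 and TLR6 were tested in all 5 comparisons, and TLR3, TLR5 and SLC15A3 only where the UF1hypo groups took them past the filter.

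Of the 10 genes, UNC93B1 had the highest mean level in each of the 4 groups, between 71.1 and 141.8 TPM, a percentile of 87.6 to 93.9 among protein-coding genes. SLC15A4 came next in 3 groups, at 21.9 to 23.6 TPM, while in UF1hypo shUHRF1 SLC15A3, at 117.9 TPM, stood between UNC93B1 and SLC15A4. The library ranges of UNC93B1 and SLC15A3 overlapped there, from 123.6 to 160.1 and from 98.6 to 137.1 TPM. All receptor genes were far lower, with no library above 7.85 TPM. In HCT116 shScr the order went on with TLR6, TLR1, TLR3, TLR5 and SLC15A3, of which TLR3 and TLR5 overlapped in their ranges. In HCT116 shUHRF1 it went on with TLR6, TLR5, TLR1, TLR3 and SLC15A3, and both TLR5 with TLR1 and TLR3 with SLC15A3 overlapped. In UF1hypo shScr TLR3 came next after SLC15A4, followed by TLR6, TLR5, SLC15A3 and TLR1, and the ranges of SLC15A3 and TLR1 were close, at 0.866 to 0.881 and 0.533 to 0.788 TPM. In UF1hypo shUHRF1 TLR3 stayed the highest receptor, and the ranges of TLR1 and TLR6 overlapped. TPM is a value per transcript length, so these levels can be set beside each other within a library as far as length goes. It does not correct for GC content or for sequence shared between genes, so close ranks are uncertain.

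**Figure D1:**
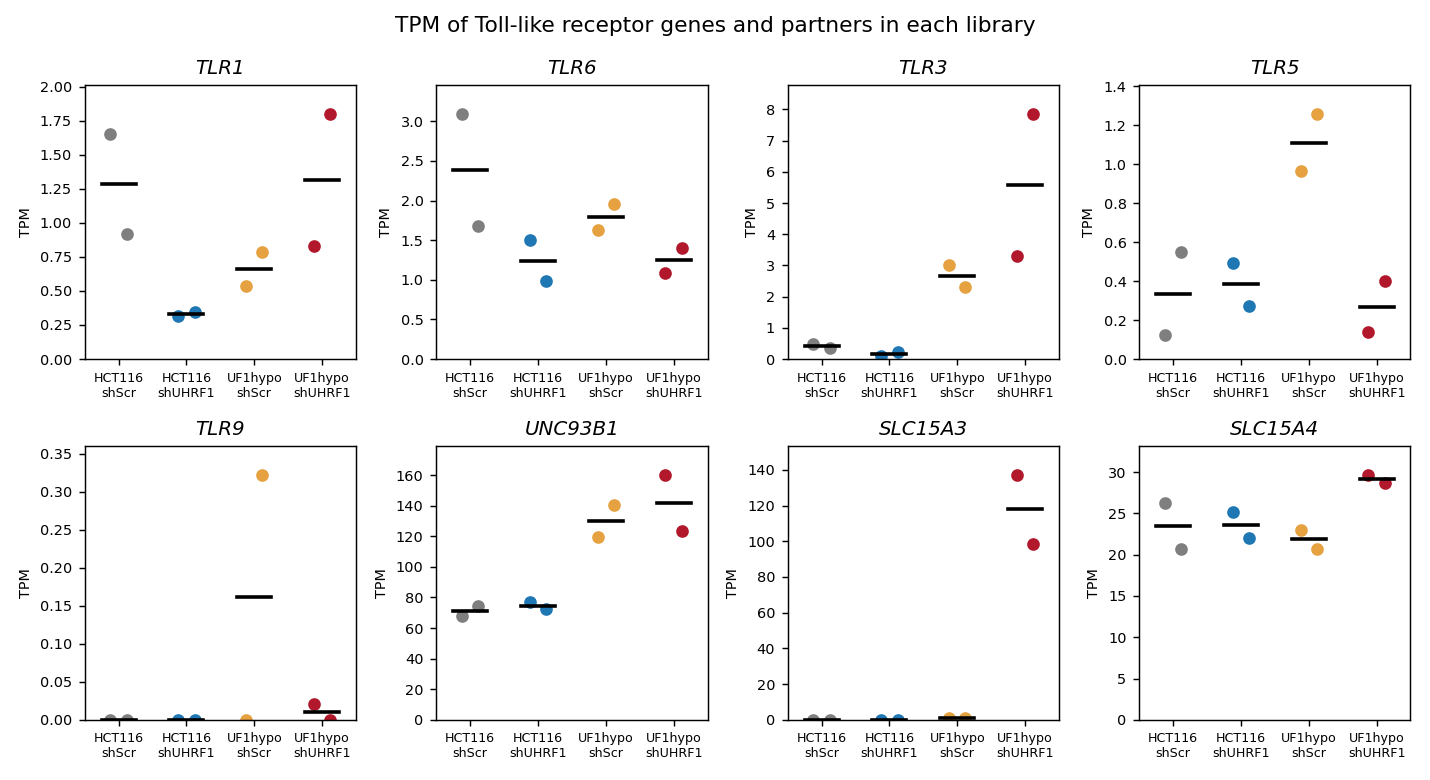
TPM of 8 of the genes in each of the 8 libraries; points are libraries (2 per group), horizontal bars are group means, and each panel has its own linear axis from 0. SLC15A3 sits at 0.881 TPM or lower in 6 libraries and at 98.6 and 137.1 in UF1hypo shUHRF1, and TLR3 is above 2 TPM only in the 4 UF1hypo libraries.

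The surface receptors were low or listed at 0. TLR4, the lipopolysaccharide receptor (ENSG00000136869.16, chromosome 9, 117704175 to 117724735, plus strand), was listed at 0 in all 8 libraries. TLR2, the shared partner of TLR1 and TLR6 (ENSG00000137462.9, chromosome 4, 153684070 to 153706260, plus strand), was listed at 0 in 7 libraries and at 0.0193 TPM in 1 HCT116 shUHRF1 library. Its promoter shown above is CpG-rich, as is that of SLC15A4 (31 CpG dinucleotides), which was at 20.7 TPM or higher in every library. The TLR4 window held 8 CpG dinucleotides. The part of promoter sequence or DNA methylation in these levels was not tested. TLR1 and TLR6 were present at low levels. On the minus strand of chromosome 4, the gene model of TLR6 (38823715 to 38856817, GRCh38) lies within that of TLR1 (38790677 to 38856817). The 2 models overlap by 33103 bases, a span that includes introns, and reads from the overlap can be split between them in counting. Of the 75-base windows of their transcripts, 5.37% of those of TLR1 and 2.25% of those of TLR6 also occur in the other gene.

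TLR1 was at 1.65 and 0.915 TPM in HCT116 shScr and at 0.319 and 0.343 in HCT116 shUHRF1. In UF1hypo shScr it was at 0.533 and 0.788 TPM and in UF1hypo shUHRF1 at 0.829 and 1.80. Both knockdown libraries were lower than both controls in HCT116 and both were higher in UF1hypo. The mean ratio of knockdown to control was 0.258 in HCT116 and 1.99 in UF1hypo, and the fitted log2 fold changes were -0.76 ± 0.291 and 0.45 ± 0.268 (SE), neither past the threshold (limma, adjusted p = 0.653 and 0.320). The difference between these effects was 1.21 ± 0.379 with an adjusted p of 0.121. Without the first UF1hypo shUHRF1 library the difference was 1.52 with an adjusted p of 0.0291, which would be a call, and without the second it was 0.90 with an adjusted p of 0.0634. Within UF1hypo the effect was 0.76 (adjusted p = 0.0668) without the first library, and without the second TLR1 did not pass the filter. Between the lines under the UHRF1 hairpin the log2 fold change was 0.77 ± 0.267 with an adjusted p of 0.0602, which became a call at 1.07 (adjusted p = 0.0151) without the first library.

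TLR6 was at 3.09 and 1.68 TPM in HCT116 shScr and at 1.50 and 0.986 after knockdown, and in the clone at 1.62 and 1.96 TPM in UF1hypo shScr and at 1.09 and 1.40 after knockdown. The knockdown libraries were below the controls in both lines. The log2 fold change was -0.57 ± 0.275 in HCT116 and -0.31 ± 0.259 in UF1hypo (limma, adjusted p = 0.837 and 0.477), and the lines differed by 0.01 ± 0.258 under the UHRF1 hairpin (adjusted p = 0.984). Without the first or the second UF1hypo shUHRF1 library the effect in UF1hypo was -0.22 or -0.41 (adjusted p = 0.626 and 0.274), the difference of effects was 0.36 or 0.16 in place of 0.26, and the difference between the lines was 0.11 or -0.09, so it changed sign.

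TLR5, the flagellin receptor (ENSG00000187554.14, chromosome 1, 223109404 to 223143248, minus strand), was highest in the UF1hypo controls. It was at 0.963 and 1.26 TPM there, and at 0.139 and 0.398 after knockdown in the clone. The HCT116 controls were at 0.121 and 0.548 TPM and the HCT116 knockdown libraries at 0.495 and 0.273. Neither UF1hypo knockdown library reached the control range of that line. The mean ratio of knockdown to control in UF1hypo was 0.242, and the log2 fold change of -0.74 ± 0.238 did not pass the test (limma, adjusted p = 0.0791). Without the second UF1hypo shUHRF1 library its adjusted p was 0.0242, at -0.89, and without the first it was 0.131. The difference of hairpin effects was -0.80 ± 0.336 (adjusted p = 0.247), and -0.66 or -0.95 without the first or the second of these libraries.

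Of the endosomal receptors, TLR3 passed the filter and TLR9 did not. TLR3, the sensor of double-stranded RNA (ENSG00000164342.13, chromosome 4, 186069155 to 186088073, plus strand), was at 0.473 and 0.348 TPM in HCT116 shScr and at 0.0960 and 0.236 in HCT116 shUHRF1. In the clone it was at 3.002 and 2.30 TPM with the control hairpin and at 3.29 and 7.85 with the UHRF1 hairpin. All 4 UF1hypo libraries were above all 4 HCT116 libraries. Within UF1hypo both knockdown libraries were above both controls, the lower by little.

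TLR3 was called higher in UF1hypo than in HCT116 under the UHRF1 hairpin, with a log2 fold change of 2.40 ± 0.326 (limma, adjusted p = 0.00113). The group means were 5.57 ± 3.22 and 0.166 ± 0.0987 TPM (SD, n = 2), a ratio of 33.6 whose denominator is a low value. The call held without either UF1hypo shUHRF1 library, at 2.93 and 1.88. Under the control hairpin the means were 2.65 ± 0.494 and 0.410 ± 0.0889 TPM, a ratio of 6.46, and the log2 fold change was 1.37 ± 0.337 with an adjusted p of 0.0566. With a pseudocount of 0.1 in place of 1 this value was 2.43 with an adjusted p of 0.0419, and other alternatives that made it a call are given under the dependence on processing. The hairpin effect in UF1hypo was 0.76 ± 0.326 (adjusted p = 0.174), which became 1.28 with an adjusted p of 0.00749 without the first UF1hypo shUHRF1 library and 0.24 (0.316) without the second. The difference of hairpin effects was 1.04 ± 0.462 (adjusted p = 0.281), which became a call at 1.56 (0.0156) without the first library and 0.51 (0.151) without the second. In bulk RNA, more cells that transcribe a gene and more transcript per cell cannot be told apart.

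TLR9, the CpG DNA receptor (ENSG00000239732.4, chromosome 3, 52221080 to 52225645, minus strand), was listed at 0 in 6 libraries, at 0.322 TPM in 1 UF1hypo shScr library and at 0.0213 in 1 UF1hypo shUHRF1 library. The annotation holds a further gene, ENSG00000173366, that contains 97.4% of the 75-base windows of TLR9, so reads of one can be listed under the other and the value of TLR9 is uncertain. The other TLR genes, TLR7, TLR8 and TLR10, did not exceed 0.163 TPM in any library.

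UNC93B1 (ENSG00000110057.8, chromosome 11, 67991100 to 68004982, minus strand) had higher levels in the clone whichever hairpin it carried. It was at 68.0 and 74.2 TPM in HCT116 shScr and at 76.8 and 72.2 in HCT116 shUHRF1. In UF1hypo shScr it was at 119.4 and 140.5 TPM and in UF1hypo shUHRF1 at 160.1 and 123.6. The 4 UF1hypo libraries lay above the 4 HCT116 libraries, and the ranges with and without the UHRF1 hairpin overlapped in each line. The ratio of means between the lines was 1.83 under the control hairpin and 1.90 under the UHRF1 hairpin. The log2 fold changes, 0.86 ± 0.175 and 0.91 ± 0.172, passed the adjusted p threshold (limma, 0.0280 and 0.00563) and stayed under the fold threshold, so neither was a call. Among the other settings tried they ranged from 0.62 to 0.91 under the control hairpin and from 0.47 to 0.92 under the UHRF1 hairpin. Under the control hairpin the adjusted p reached 0.0628 among the other settings tried and 0.273 with 1 library left out. In the UHRF1 hairpin comparison the log2 fold change of UNC93B1 was 0.72 without the first UF1hypo shUHRF1 library. It was 1.09 without the second, past the fold threshold, and this fit made it a call. The hairpin effect was 0.07 ± 0.175 in HCT116 and 0.12 ± 0.172 in UF1hypo (adjusted p = 1.00 and 0.699), and the latter was -0.07 or 0.30 without the first or the second UF1hypo shUHRF1 library. The difference of these effects, 0.05 ± 0.243, was -0.13 or 0.24 without them. Of the 75-base windows of UNC93B1, 9.5% also occur in 7 other genes, most of them in the copy UNC93B7 with 5.41%, so part of its level could be split among copies.

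SLC15A3 (ENSG00000110446.12, chromosome 11, 60937060 to 60952653, minus strand) had the greatest change of the 10 genes. It was at 0.0852 and 0 TPM in HCT116 shScr and at 0.130 and 0.116 after knockdown, and in the clone at 0.881 and 0.866 TPM in UF1hypo shScr and at 137.1 and 98.6 after knockdown. Both UF1hypo knockdown libraries thus stood far above both controls of that line, while all HCT116 libraries stayed at 0.130 TPM or lower. Its percentile among protein-coding genes went from 26.0 in HCT116 shScr to 92.3 in UF1hypo shUHRF1.

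In UF1hypo the ratio of mean SLC15A3 levels between UHRF1 and control hairpin was 134.9, with a range over pairs of libraries from 112 to 158.3, and the log2 fold change was 5.97 ± 0.221 (limma, adjusted p = 3.30e-06). Without either UF1hypo shUHRF1 library the value was 5.73 or 6.20. In HCT116 the gene did not pass the filter. With no filter its log2 fold change there was 0.11 and did not pass the test (adjusted p = 1.00). The difference of the hairpin effects between the lines was called, at 5.86 ± 0.313 (adjusted p = 0.000116), and was 5.62 or 6.10 without the first or the second UF1hypo shUHRF1 library. Between the lines under the UHRF1 hairpin the log2 fold change was 6.71 ± 0.221 (adjusted p = 7.87e-07), and 6.47 or 6.94 without them. All of these were calls. Under the control hairpin SLC15A3 did not pass the filter, and with no filter its value was 0.85 with an adjusted p of 0.0913, though both UF1hypo libraries were above both HCT116 libraries. The gene overlaps TMEM132A on the other strand by 100 bases, and the strand setting of the counting was not given in the sources used here. TMEM132A was at 93.1 to 147.3 TPM over the 8 libraries, with a log2 fold change of -0.09 in the UF1hypo knockdown (adjusted p = 0.829).

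SLC15A4 (ENSG00000139370.12, chromosome 12, 128793194 to 128823958, minus strand) ranged only from 20.7 to 29.6 TPM over the 8 libraries. It was at 26.3 and 20.7 TPM in HCT116 shScr and at 25.1 and 22.1 after knockdown, and in the clone at 23.0 and 20.7 TPM in UF1hypo shScr and at 29.6 and 28.7 after knockdown. The UF1hypo shUHRF1 libraries were above the other 6, by a mean ratio of 1.33 to their own controls. The log2 fold change of 0.40 ± 0.185 did not pass the test (limma, adjusted p = 0.205), nor did any other comparison of this gene. Without the first or the second UF1hypo shUHRF1 library it was 0.38 or 0.42, the value between the lines under the UHRF1 hairpin was 0.27 or 0.32, and the difference of effects was 0.37 or 0.41, none past the threshold. Its partner TASL was listed at 0 in all 8 libraries.

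**Figure D2:**
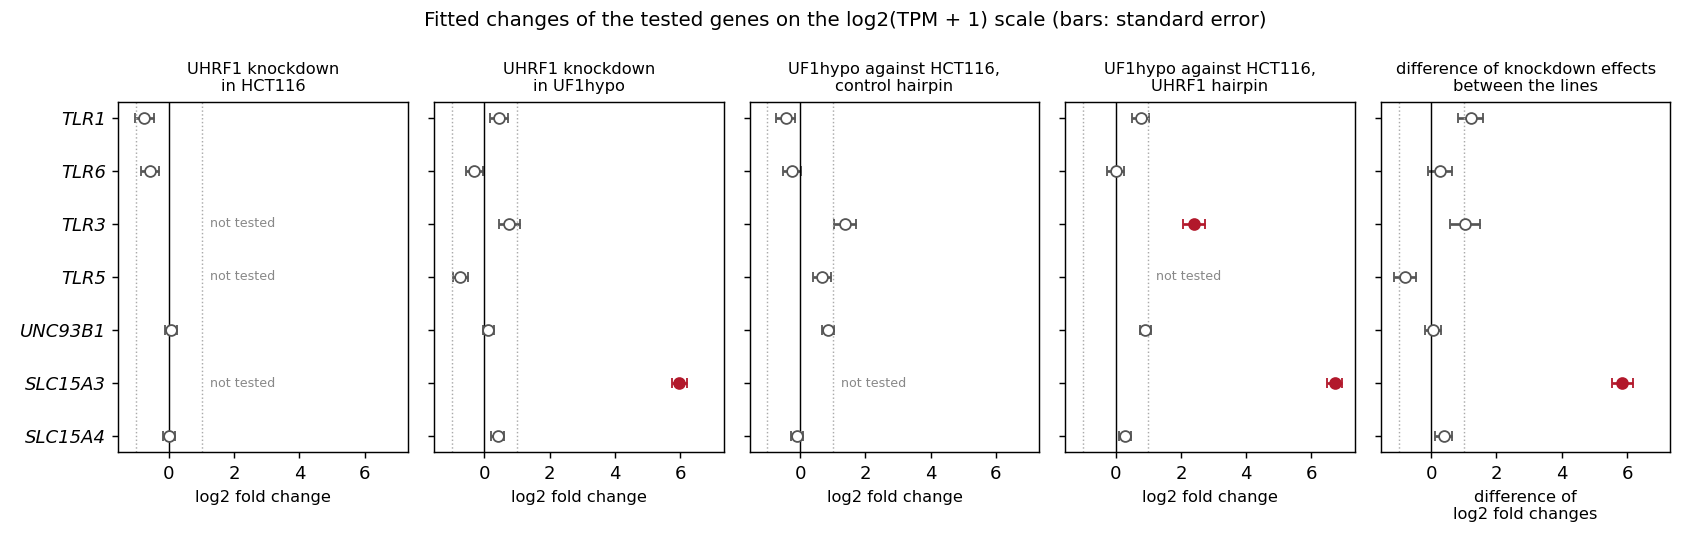
Fitted log2 fold changes (log2(TPM + 1) scale, bars are standard errors from limma) of the tested genes in the 5 comparisons; filled red points were called and dotted lines mark the fold threshold of 1. SLC15A3 was called in 3 panels, at 5.97, 6.71 and 5.86, and TLR3 in 1, at 2.40.

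Counted over the set, none of the 4 tested genes was called for UHRF1 knockdown in HCT116, where 0.0708% of all tested genes were called, 0.0472% higher and 0.0236% lower. These were 9 of 12704, and 810 had an unadjusted p below 0.05, TLR1 among them as 1 of the 4. For knockdown in UF1hypo, 1 of 7 was called higher and none lower, beside 8.53% of all genes called, 7.39% higher and 1.14% lower. Under the control hairpin 0 of 6 were called between the lines, beside 3.54% of all genes (2.59% higher and 0.949% lower), where 2341 genes had an unadjusted p below 0.05, among them 3 of the 6, namely TLR3, TLR5 and UNC93B1. Under the UHRF1 hairpin 2 of 6 were called higher, beside 16.2% of all genes, 12.2% higher and 3.92% lower. For the difference of hairpin effects 1 of 7 was called higher, beside 5.09% of all genes, 4.54% higher and 0.559% lower. Nothing particular to the set can be read from these counts. Quantile normalization moved the share of calls that were higher from 86.7% to 70.2% in the UF1hypo knockdown, from 75.7% to 56.8% between the lines under the UHRF1 hairpin, and from 89.0% to 76.1% for the difference. The correction for GC content and length took the last to 77.6%.

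Of the 7 genes tested in the UF1hypo knockdown, 4 had both knockdown libraries above both controls, 2 had both below and 1 overlapped, where 30.6% and 18.3% of all tested genes did so. In HCT116, 2 of 4 had both knockdown libraries below both controls, where 29.3% of all genes did, and none had both above, where 20.1% did. Between the lines, 3 of 6 were higher in both UF1hypo libraries and 1 lower under the control hairpin, where 29.1% and 37.2% of all genes were. Under the UHRF1 hairpin 5 of 6 were higher and none lower, where 36% and 25% of all genes were. The members' median log2 fold change was 0.40 in the UF1hypo knockdown against 0.04 over all genes tested, and -0.28 against -0.03 in the HCT116 knockdown. Between the lines it was 0.29 against -0.05 under the control hairpin and 0.84 against 0.05 under the UHRF1 hairpin. Under the UHRF1 hairpin TLR1, TLR3 and SLC15A3 passed the filter only through UF1hypo, as did TLR3 and TLR5 under the control hairpin. In the UF1hypo knockdown TLR1 and SLC15A3 passed only through the UHRF1 hairpin libraries, and TLR5 only through a control. These medians and counts thus depend on which genes entered each test, and no change of the set as a whole can be read from them.

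The other genes of the pathway were taken from 9 lists with 82 genes. In the HCT116 knockdown none of the 55 tested was called by limma and 5 had an unadjusted p below 0.05. In the UF1hypo knockdown 12 of 60 were called, all higher, where 7.39% of all tested genes were called higher. Their median log2 fold change was 0.36 in UF1hypo and -0.12 in HCT116. The filter was applied per comparison, so genes high only in UF1hypo shUHRF1 were among the 60 and not among the 55. Between the lines 4 were called higher and 2 lower of 56 under the control hairpin, and 19 higher and none lower of 60 under the UHRF1 hairpin, beside the 2.59%, 0.949%, 12.2% and 3.92% of all genes given above.

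Of the 15 genes for chaperones, trafficking and processing, 11 were tested and none was called in any of the 5 comparisons. LGMN, at 0.91 under the control hairpin and 0.75 under the UHRF1 hairpin (limma, adjusted p = 0.0104 and 0.00632), and CTSH, a lysosomal protease, at 0.89 under the UHRF1 hairpin (0.00798), passed the adjusted p threshold between the lines and stayed under the fold threshold. HSP90B1, the endoplasmic reticulum chaperone that folds most TLRs, was at 538.7 to 1055 TPM, and its cofactor CNPY3 was at 86.8 to 142.4. LGMN, a protease that cleaves endosomal TLRs, was at 72.9 to 95.0 TPM in the HCT116 libraries and at 134.9 to 166.4 in the UF1hypo libraries. LAMP5 was listed at 0 throughout. Of the 7 co-receptor and ligand transfer genes only HMGB1 was tested, and it was not called. LY96, the co-receptor of TLR4, was listed at 0 in every library, as were LY86 and CD180, and CD14 did not exceed 0.508 TPM.

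The adaptors that bind TIR domains gave 2 calls of 5 in the UF1hypo knockdown, where 7.39% of all tested genes were called higher. MYD88, the adaptor of all TLRs here except TLR3, was at 17.6 and 19.0 TPM in HCT116 shScr and 18.7 and 17.3 in HCT116 shUHRF1, and at 41.7 and 46.9 in UF1hypo shScr and 121.1 and 100.3 after knockdown in the clone. The HCT116 libraries, the UF1hypo controls and the UF1hypo knockdown libraries did not overlap, and it was called higher both in the clone (log2 fold change 1.23 under the control hairpin) and with knockdown in the clone (1.30). TICAM1, the adaptor of TLR3, was at 31.5 to 40.8 TPM in 6 libraries and at 102.2 and 75.1 in UF1hypo shUHRF1, and it rose by 1.13. That call was lost in 5 of 22 alternatives, among them leaving out the first UF1hypo shUHRF1 library or the first UF1hypo shScr library. TICAM2, which bridges TLR4 to TICAM1, was called lower in the clone under the control hairpin, with a log2 fold change of -1.65 and levels of 0.469 and 0.300 TPM against 3.20 and 3.49.

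Of the 16 kinases and ubiquitin ligases, IRAK2 was called in the UF1hypo knockdown, at 1.01, and this call was kept in 11 of 22 alternatives. Among the 9 transcription factors, IRF7, JUN and RELB were called there, at 1.84, 1.39 and 1.29. IRF7, which drives type I interferon genes downstream of endosomal TLRs, was at 14.2 to 19.9 TPM in the HCT116 libraries, 128.3 and 149.6 in the UF1hypo controls, and 607.8 and 407.2 in UF1hypo shUHRF1. It was called higher in the clone under the control hairpin too, at 3.08. TNFAIP3, which removes ubiquitin from TLR signaling proteins, was called among the inhibitors, at 1.09, and kept in 16 of 22 alternatives. NFKBIA, the inhibitor of NF-kB, was called higher in the clone under the control hairpin, at 1.27.

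Of the 16 genes that TLR signaling is known to induce, 10 were tested in the UF1hypo knockdown and 5 were called higher. IFNL1, IFNL3 and CCL5 led them, at 3.30, 2.92 and 2.43. Of all tested genes, 7.39% were called higher there. CCL5, IFNL1, IFNL2 and IFNL3 passed the filter only through the UF1hypo shUHRF1 libraries, where they were high. Such genes are likely to be called higher, so the count does not describe the list as a whole. IFNL1, a type III interferon, was at 14.0 and 9.55 TPM in UF1hypo shUHRF1 and at 0.627 or lower in the other 6 libraries. CCL5, a chemokine, was at 4.49 and 5.27 TPM there and at 0.316 or lower elsewhere. IFNB1 did not exceed 0.385 TPM in any library. ICAM1, an adhesion molecule, was at 4.86 and 3.39 TPM in the UF1hypo controls and 21.4 and 14.6 after knockdown in the clone, against 11.3 to 14.9 in the HCT116 libraries. It was called lower in the clone under the control hairpin, at -1.33, and higher in the UF1hypo knockdown, at 1.88. These genes can be induced through other pathways as well, and whether any TLR had a part in their levels was not tested. Of the 3 other SLC15 transporters, SLC15A1 was called higher in the clone under the control hairpin, at 1.43 with levels of 2.28 and 2.51 TPM, and SLC15A5 was listed at 0 throughout.

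Between the lines under the UHRF1 hairpin 12.2% of all tested genes were called higher. The calls were led by IRF7 at 4.77, JUN at 2.26 and RELB at 1.92 among the transcription factors, with 4 of 9 called. MYD88 was at 2.55 and TICAM1 at 1.40 among the adaptors. IKBKE, a kinase that phosphorylates interferon regulatory factors, IRAK1 and IKBKG were called at 1.57, 1.18 and 1.04 among the 16 kinases and ligases, and NFKBIA and TNFAIP3 at 1.67 and 1.48 among the 6 tested inhibitors. Of the induced genes 7 of 10 were called, led by IFNL1, IFNL3 and CCL5 at 3.57, 2.997 and 2.55. Of these 7, only BIRC3 passed 1 TPM in an HCT116 shUHRF1 library. The others entered the test through UF1hypo shUHRF1, where they were high, so the count does not describe the list as a whole. TICAM1, IRAK1 and IKBKG were no longer called with the correction for GC content and length, IRAK1 was also lost without the first UF1hypo shUHRF1 library, and IKBKG was kept in 11 of 21 alternatives.

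Single libraries decided several of these calls. Under the control hairpin MYD88, TICAM2 and NFKBIA were lost without either HCT116 shScr library or without the second UF1hypo shScr library, and ICAM1 and SLC15A1 without any 1 of the 4 libraries compared, whereas IRF7 was kept in all 21 alternatives. In the UF1hypo knockdown RELB was lost without the first UF1hypo shScr or the first UF1hypo shUHRF1 library, JUN without the second UF1hypo shScr library and TNFAIP3 without either UF1hypo shScr library. MYD88, IRF7, IFNL1, IFNL3, CCL5 and ICAM1 were kept there in all 22 alternatives.

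For the difference of hairpin effects, 9 of the 60 were called, all higher, where 4.54% of all tested genes were called higher and 0.559% lower. They were MYD88 at 1.32 and TICAM1 at 1.195 among the adaptors, JUN, IRF7 and RELB at 1.83, 1.69 and 1.43 among the transcription factors, and 4 induced genes led by IFNL1, IFNL3 and CCL5 at 3.30, 2.92 and 2.81. This count ranged from 2 to 16 when single libraries were left out. The MYD88 and IRF7 calls were each lost in 6 of the 8 fits that left out 1 library, those without any 1 of the HCT116 or UF1hypo shScr libraries. The JUN call was lost in 5 of the 8, those without any 1 of the HCT116 libraries or without the second UF1hypo shScr library. Of 20 alternatives, the TICAM1 call was kept in 4, the RELB call in 6 and the ICAM1 call, at 1.70, in 12. The CCL5 call was kept in all 20. CCL5, IFNL1 and IFNL3 passed the filter only through the UF1hypo shUHRF1 libraries, where they were high.

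**Figure D3:**
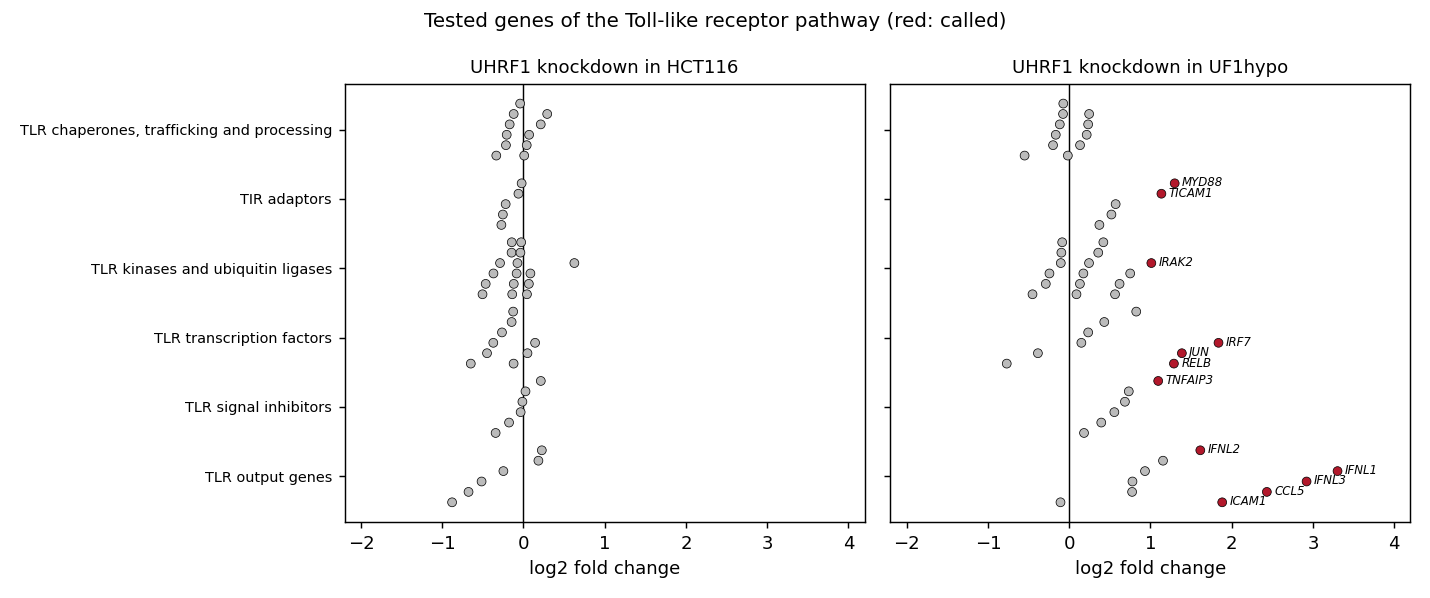
Log2 fold changes on knockdown (log2(TPM + 1) scale) of the tested genes in 6 of the pathway lists, in HCT116 (left) and UF1hypo (right); each point is a gene, red points were called and are named, and the vertical spread within a list only separates the points. No point is red in HCT116, and the 12 red points in UF1hypo all lie above 1.

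Leukocyte markers were measured beside these genes, since most TLR and SLC15A3 transcripts are known from myeloid cells. The summed level of the 15 markers was 14.6 to 16.5 TPM in HCT116 shScr and 8.66 to 9.67 after knockdown, and in the clone 42.8 to 45.4 TPM with the control hairpin and 84.4 to 118.0 after knockdown. This sum was lower after knockdown in HCT116 and higher after knockdown in the clone. Most of each sum was CD68, a lysosomal glycoprotein, at 12.2 and 13.7, 6.27 and 7.30, 40.6 and 42.6, and 106.6 and 77.7 TPM in the 4 groups. PTPRC (CD45), the marker shared by all leukocytes, did not exceed 0.0728 TPM, and FCGR3A and IL3RA were listed at 0. CSF1R was at 1.06 to 1.77 TPM in the UF1hypo libraries and at 0.598 or lower in the HCT116 libraries. ITGAM was at 1.21 and 0.971 TPM in UF1hypo shUHRF1 and at 0.413 to 1.00 elsewhere. Neither was called in the UF1hypo knockdown. CD3D, a T cell receptor subunit, was at 5.05 and 2.99 TPM in UF1hypo shUHRF1, and both it and CD68 were called higher in the UF1hypo knockdown (2.12 and 1.11). Of the 15 markers, 7, 8, 7 and 3 were listed at 0 in both libraries of the 4 groups in that order. Those with a mean above 1 TPM numbered 1, 1, 2 and 4. The part of these markers in the levels of the TLR genes and their partners was not tested.

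The difference between the replicates of UF1hypo shUHRF1 was set beside the GC content of each transcript. TLR3 (37.6% GC) and TLR1 (39.1%) were higher in the second library, by 1.05 and 0.61 on the log2(TPM + 1) scale. UNC93B1 (65.3%) and SLC15A3 (64.4%) were lower in it, and the differences were -0.37 and -0.47. SLC15A4, at 50.5%, differed by -0.05. The 2 libraries thus disagreed most on TLR3 and TLR1, and the rise of SLC15A3, at 5.97, was far larger than its spread between them. The part of base composition in the TLR3 and TLR1 differences was not tested beyond the fits that correct for it.

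The protein-coding genes whose pattern over the 8 libraries was most like that of SLC15A3 were MLC1, PRSS56, BGN, KRT17 and PDCD1, with a Pearson r of 0.997 to 0.998. For TLR3 they included SAMD9, HRH1, MEIS2 and PRKAA2, with a Pearson r of 0.986 to 0.992. Both orders were taken over 6936 genes with a range of log2(TPM + 1) above 1, and the 8 libraries share their group structure, so high values are common.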

How the data were processed

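Poly(A) RNA from 8 libraries of HCT116 and its clone UF1hypo, 2 per group, was analyzed from gene abundance tables; groups were taken from the library titles. Per the labels and the study's methods, the authors used Fastp for trimming, HISAT2 (version 2.0.4) for alignment to GRCh38 and StringTie (version 2.1.4) for the tables, versions as in the submitters' processing notes; the annotation release was not given in the sources used here. The deposited TPM values (per transcript length, scaled to 1e+06 per library) were used for all levels and tests, the deposited FPKM values for an alternative, and the deposited coverage with FPKM for the depth. No counts were used here, so depth per gene is unknown and no counting interval was given. The authors tested counts with another tool, which these units do not allow.

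Values of log2(TPM + 1) of protein-coding genes (GENCODE v44, matched by identifier for 60507 of 60649) were fitted with limma (version 3.58.1, R 4.3.3, trended variance, all 8 libraries, group means). Genes above 1 TPM in at least 1 library of a comparison were tested, with Benjamini-Hochberg adjustment over all of them. Transcript GC, shared 75-base windows and gene overlaps came from GENCODE v44 and GRCh38 sequence. The fits were tested on simulated data. Named were all 10 genes, UHRF1, up to 3 called genes of largest change per pathway list and comparison, genes listed at 0 or used as levels, and the 5 genes most correlated with a called member (1 is not reported here); ENSG00000173366, TMEM132A, HSP90B1, CNPY3, LGMN, CTSH, CD14, IFNB1 and CD68 were named after their values were seen. The members, lists and rules were chosen with earlier results of these data known. Alternatives were other pseudocounts, filters, units, scalings, variance models, a correction for GC content and length, replicate blocks and leaving out each library.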

Additional observations from a re-analysis of the deposited data

Results flagged for a closer look

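The effect of the UHRF1 hairpin on SLC15A3 differed between UF1hypo and HCT116 by 5.86 on the log2(TPM + 1) scale (limma interaction, adjusted p = 0.000116), with both UF1hypo libraries higher on knockdown. TLR1 and TLR3 were singled out because every knockdown library was below the controls in HCT116 and above them in UF1hypo. Such separation is common with 2 libraries a group. Of all tested genes, 29.3% were lower in this way in HCT116 and 30.6% higher in UF1hypo. The share with both was not counted. TLR3 did not pass the filter in the HCT116 knockdown, and with no filter its log2 fold change there, -0.28, did not pass the test. The differences of hairpin effect of TLR1 and TLR3 were 1.21 and 1.04, and the tests of these differences did not pass (limma interaction, adjusted p = 0.121 and 0.281). For both, leaving out the first UF1hypo shUHRF1 library made the difference a call, at 1.52 and 1.56 (adjusted p = 0.0291 and 0.0156), and leaving out the second lowered it to 0.90 and 0.51 (adjusted p = 0.0634 and 0.151). Over all 8 left-out libraries the adjusted p reached 0.408 for TLR1 and 0.585 for TLR3.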

How the results depend on the processing

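SLC15A3 stayed called in all alternatives of its 3 comparisons, at 5.19 to 6.90 for the UF1hypo knockdown, 5.59 to 9.03 between the lines under the UHRF1 hairpin and 5.14 to 6.19 for the difference. TLR3 stayed called between the lines under the UHRF1 hairpin, at 1.60 to 4.34. Over the other values of the 10 genes, the cause of the changes below was not tested.

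In the HCT116 knockdown 9 genes were called, against 30 with a pseudocount of 0.1, 2 with no TPM filter, 3 with all annotated genes, 3 with median-ratio scaling, 5 with variances without a trend, 89 with the 4 libraries alone, 72 with the correction for GC content and length, and 0 to 100 with a library left out (99 and 100 without a UF1hypo shUHRF1 library). In the UF1hypo knockdown 1162 were called, against 749 with FPKM, 563 with the 4 libraries alone and 655 to 2255 with a library left out (2255 without the second UF1hypo shUHRF1 library, 655 and 775 without a UF1hypo shScr library); the pathway genes called went from 12 to 6 with the 4 libraries alone, and the members from 1 to 2 without the first UF1hypo shUHRF1 library (range 1 to 2), through TLR3. Between the lines under the control hairpin no member was called, against 1, TLR3, with a pseudocount of 0.1, median-ratio scaling, variances without a trend, the 4 libraries alone, the correction for GC content and length, or either UF1hypo shUHRF1 library left out (range 0 to 1). There, leaving out a library gave 149 to 594 calls against 455 (149 to 190 without a library of the comparison), and 1 to 6 pathway genes against 6. Under the UHRF1 hairpin it gave 1585 to 3859 against 2205 (3859 without the second UF1hypo shUHRF1 library), and TLR1 (0.77) was called with a pseudocount of 0.1 (1.62), with the GC and length correction (1.13) and without the first UF1hypo shUHRF1 library (1.07). The difference gave 702 calls, against 448 with a pseudocount of 0.1, 1081 with the GC and length correction and 171 to 2142 with a library left out (1073 and 2142 without a UF1hypo shUHRF1 library); 3 members in place of 1 were called with the correction, TLR1 (1.34) and TLR3 (1.15) being added, with a range of 1 to 3 and of 2 to 16 pathway genes over left-out libraries. Between the lines under the UHRF1 hairpin, UNC93B1 (0.91) also became a call without the second UF1hypo shUHRF1 library (1.09). A fit that leaves out a library assumes that the lone library of its group varies like the other groups.

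Of the values near 0, 22 changed sign. With FPKM, SLC15A4 in the HCT116 knockdown was -0.0026 and TLR6 under the UHRF1 hairpin -0.010. With median-ratio scaling TLR6 under the UHRF1 hairpin was -0.0046 and UNC93B1 for the difference -0.026, and with quantile normalization these were -0.50 and -0.093, and TLR6 for the difference -0.18. With the GC and length correction, with or without the block, UNC93B1 was -0.10 in the UF1hypo knockdown and -0.15 for the difference. Over left-out libraries, SLC15A4 ranged from -0.15 to 0.18 in the HCT116 knockdown and from -0.26 to 0.073 under the control hairpin, UNC93B1 from -0.067 to 0.30 in the UF1hypo knockdown and from -0.13 to 0.24 for the difference, and TLR6 from -0.55 to 0.054 under the control hairpin, from -0.16 to 0.17 under the UHRF1 hairpin and from -0.046 to 0.56 for the difference.

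Same-numbered libraries of different groups did not deviate together in the same direction: their deviations correlated at -0.441 to 0.0612 over 12691 genes. The value of -0.441 was between UF1hypo shScr and UF1hypo shUHRF1, whose deviations ran in opposite directions. With the numbers as a replicate block, 1 gene was called in the HCT116 knockdown and 68 with the block and the GC and length correction; 1110 were called in the UF1hypo knockdown. The block with that correction gave 1 member in place of 0 under the control hairpin, and 3 in place of 1 for the difference. A block with the numbers of UF1hypo shUHRF1 crossed, chosen after seeing the data, gave 1207 calls in the UF1hypo knockdown. The block changed no other call of a member, apart from TLR1 under the UHRF1 hairpin, called with the block and the correction.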

Other observations

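The gene ENSG00000173366, whose annotated transcript contains nearly all of the sequence of TLR9, was at 0.499 and 0.206 TPM in HCT116 shScr and at 0.161 and 0.174 after knockdown, and in the clone at 0.173 and 0 TPM in UF1hypo shScr and at 3.23 and 1.66 after knockdown. It was called higher in the UF1hypo knockdown, at 1.63 ± 0.262 (SE) on the log2(TPM + 1) scale (limma, adjusted p = 0.00488), and in 20 of 22 alternatives. Both UF1hypo knockdown libraries were above the other 6. The gene passed the filter only through these knockdown libraries, where it was high, and such genes are likely to be called higher. Of all genes tested in the UF1hypo knockdown, 7.39% were called higher. For the difference of hairpin effects its call was kept in 11 of 20 alternatives. The gene was chosen after its values were seen, and whether these reads came from TLR9 or from the longer gene cannot be told apart in these tables.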
